A study of Homo sapiens with 29 samples.

Results

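Human embryonic stem cells of the established line HuES6 were differentiated for 8 days with FGF2 and BMP4 but no WNT factor (the FB arm) or with FGF2 and the WNT factor but no BMP4 (the FW arm), and the 2 arms were compared gene by gene on the same 7 days. The FB arm held 7 arrays and the FW arm 7 arrays, 1 for each of days 1, 2, 3, 4, 5, 6 and 8, out of 29 arrays in all. The other arrays were those of the FBW arm, given all 3 factors, those of the BW arm, given no FGF2, and 1 array of undifferentiated cells on day 0. Per the labels, the day 0 factors were FGF2 (10 ng/ml), BMP4 (1 ng/ml) and the compound named there CHIR00921 (1 µM), taken here as the WNT factor of the sample descriptions. IWP-2, an inhibitor of WNT secretion, followed on days 2 and 3 (2 µM). Cells kept in FTDA medium were replated on Matrigel in a medium free of serum and albumin, with insulin on day 0 and none from day 1. All samples carry 1 identical treatment text, so the labels do not say which arms received IWP-2, and which factor an arm lacked was read from each sample's description. By these descriptions both arms share FGF2, the cell line, the medium and the insulin schedule, and differ in whether BMP4 or the WNT factor was given. Whether they also differed in IWP-2 is not stated.

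All genes detected at a detection p under 0.01 on at least 3 of the 14 FB and FW arrays were compared, which left 11576 of 20046 genes with a probe on the Illumina bead arrays. Of the others, 7376 were detected on none of the 14 arrays and 1094 on 1 or 2 of them. At the edge of this rule, the 287 genes detected on exactly 3 arrays had a median highest signal of 5.35 and the 376 detected on exactly 2 arrays one of 5.31. All signals below are background-corrected, quantile-normalised values on the log2 scale, and a difference is FB minus FW on that scale. A signal marked as not detected did not pass the detection p on that array. Where 1 side was not detected, the fold is given as a lower bound, taken against the dimmest detected probe of that array or the gene's own signal if that was higher. A daily difference compares 1 array with 1 array and so has no replicate error. A test over days asks how steady a difference was from day to day and says nothing of how separate differentiations would vary, and its p-values are too small where neighbouring days are related.

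BMP4 signals through receptors that activate SMAD proteins, which switch on ID genes, MSX genes and their own inhibitors SMAD6 and BAMBI. WNT signals through beta-catenin and TCF/LEF factors, which switch on genes such as SP5, AXIN2 and TBXT. In human embryonic stem cells both pathways can start the NODAL loop, in which NODAL raises its own transcription and that of its inhibitors LEFTY1 and LEFTY2, and together they drive the primitive streak, the origin of mesoderm and endoderm. BMP without streak formation is known to lead such cells toward amnion, trophoblast and surface ectoderm.

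The array set met the label of embryonic stem cells at the start, since POU5F1, SOX2 and NANOG, the core pluripotency factors, had signals of 11.50, 12.02 and 10.36 on day 0. Between 34.3% and 37.7% of probes were detected on the FB arrays and between 35.1% and 37.9% on the FW arrays, and the share differed by -0.314 ± 1.39 percentage points between arms (SD, n = 7 days; exact sign-flip test, two-sided p = 0.594). Median raw intensities were 105.6 to 110 on the FB arrays and 99.2 to 103.8 on the FW arrays, higher in FB on 7 of 7 days by 7.49 ± 1.95 (SD, n = 7 days; the same exact test, p = 0.0156, the smallest that 7 days allow). The part of this brightness difference in the results was not tested. The number of arrays limits the precision.

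The 2 arms followed nearly the same course. The root mean square difference over the 11576 genes between FB and FW was 0.323, 0.278, 0.249, 0.282, 0.284, 0.255 and 0.272 on the 7 sampled days in turn. On days 1, 2 and 8, the distance of FB from FBW was 0.373, 0.745 and 1.003, and that of FW from FBW was 0.331, 0.767 and 1.009. FB thus lay closer to FW than to FBW on 7 of 7 days, by a mean of 0.54 ± 0.231, and FW lay closer to FB than to FBW on 7 of 7 days, by 0.571 ± 0.262 (SD, n = 7 days; exact sign-flip tests, two-sided p = 0.0156 each, the smallest that 7 days allow). For comparison, the step from 1 sampled day to the next was 0.284 to 0.439 within FB and 0.284 to 0.508 within FW. Each FB array's deviation from its arm's mean correlated best, among the 7 FW arrays, with that of its own day, at r between 0.664 and 0.922 across genes, which are not independent replicates.

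**Figure D1:**
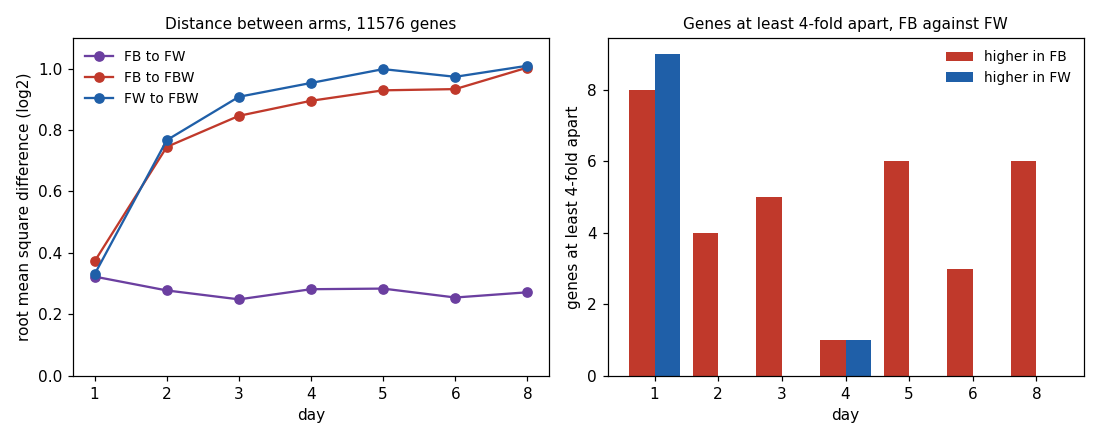
Left, root mean square difference in log2 signal over the 11576 genes on each day for FB to FW, FB to FBW and FW to FBW. FB to FW stays between 0.249 and 0.323, while both distances to FBW reach about 1 by day 8 (1.003 and 1.009). Right, number of tested genes at least 4-fold apart on each day, higher in FB beside higher in FW. Day 1 has 8 and 9, and later days have at most 6, nearly all higher in FB.

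Over all 7 days, 11542 of the 11576 genes (99.7%) had a 95% interval of the FB minus FW difference that lay within 1 log2 unit either way, which leaves no room for a 2-fold difference in their mean over days. The differences ran from -0.82 to 1.15, their median size was 0.088, and 5 genes reached 1 log2 unit. With day as a block, limma called 116 genes (1.00% of those tested) at a Benjamini-Hochberg adjusted p under 0.05, 46 higher and 70 lower in FB, and 108 of them differed by less than 1.5-fold. The count moved when a day was left out, which also leaves fewer degrees of freedom. Without day 3 or day 4 there were 3 calls each, without day 6, 8 or 5 there were 5, 7 and 9, and without day 1 there were 278. No gene was called on days 1 to 3 (0%; limma, 1421 genes at an unadjusted p under 0.05), 35 were called on days 4 to 8 (0.302%; 21 higher and 14 lower in FB), and none had a difference that changed between these windows (0%; 974 genes at an unadjusted p under 0.05).

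Counted day by day, 17 of 10718 tested genes detected in either arm were at least 4-fold apart on day 1. Of these 17 (0.159%), 8 were higher and 9 lower in FB. There were 4 on day 2 (0.0363%) and 5 on day 3 (0.0457%). Day 4 had 2 (0.0187%), day 5 had 6 (0.0548%), day 6 had 3 (0.0281%) and day 8 had 6 (0.0564%). Of these 26 later counts, the 1 gene lower in FB was LEFTY1 on day 4, and in all 34 genes were 4-fold apart on at least 1 day. Genes below are named by a rule over the tests and gene lists, or, where they carry daily values without a call, because they passed 4-fold on a day or belong to a described list. The latter were chosen after their values were seen.

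Day 1 had the largest distance between the arms and the most genes at least 4-fold apart. Several BMP targets, among them ID1, ID4 and BAMBI, were higher in FB, and several genes of WNT signalling and the primitive streak, among them SP5 and FGF8, were lower in FB, while most members of these pathways did not pass a test. In these bulk samples, fewer cells of a type and less RNA per cell cannot be told apart. In a test of each day's difference against the mean of the other 6 days, added after the daily values were seen, limma called 74 genes on day 1 (0.639%; 53 higher and 21 lower in FB, 1269 at an unadjusted p under 0.05). The same test called 1 gene on day 2 (0.00864%; 915), 1 on day 3 (0.00864%; 219) and 0 on each of days 4, 5, 6 and 8 (0%; 416, 502, 348 and 544 at an unadjusted p under 0.05). Those single genes, named after their values were seen, were ESYT2, a tether between endoplasmic reticulum and plasma membrane, with 9.82 in FB and 11.28 in FW on day 2, and SOX17, an endoderm factor described below. With 1 array for each arm and day, the day 1 cells and those 2 arrays cannot be told apart. Without day 5 the day 1 count was 33, of which 32 were among the 74.

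TFAP2A, an AP-2 factor of surface ectoderm, amnion and neural crest, was the gene furthest apart. Its signals in FB were 9.36, 6.12, 8.54, 10.93, 11.75, 11.77 and 11.73 over the 7 days. In FW it was not detected on day 1 (4.59) and had 5.52, 7.94, 10.72, 11.69, 11.64 and 11.83 on the later days. By this probe FB was at least 20.1-fold higher on day 1, fell back on day 2 and then ran close to FW. Its day 1 difference exceeded the mean of the other days by 4.52 ± 0.23 (SE; limma, adjusted p = 6.28e-07). The arms with both BMP4 and the WNT factor had 9.16 (FBW) and 11.27 (BW) on day 1, so FW was the lowest of the 4. The size depends on the probe: 3 other probes of TFAP2A were also higher in FB on day 1, by 2.11, 0.73 and 0.35, against 4.77 for the probe used.

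Of the 17 BMP response genes tested, 6 passed the day 1 test, all higher in FB, beside 0.639% of all genes. At least 2-fold higher in FB were 8, with none 2-fold lower (67 of 10718 genes, or 0.625%, were 2-fold higher in FB on that day). Their median day 1 difference was 0.64, against 0.01 over all genes. ID1, which blocks basic helix-loop-helix factors, had 12.43 in FB and 9.79 in FW on day 1, while the other days differed little, as with 10.88 in FB and 10.86 in FW on day 2. Its excess over the other days was 2.74 ± 0.15 (limma, adjusted p = 8.1e-07). BAMBI, a decoy receptor that damps BMP signalling, had 12.02 in FB and 9.54 in FW on day 1 and 13.12 in FB and 12.90 in FW on day 8 (excess 2.29 ± 0.15, adjusted p = 2.08e-06 in limma). The other calls were ID4 (6.42 in FB, not detected in FW at 4.26, at least 2.62-fold), ID2 (10.29 in FB, 9.12 in FW), ID3 (11.22 in FB, 9.68 in FW) and the homeobox gene MSX2 (5.87 in FB, not detected in FW at 4.46). SMAD6, an inhibitor within the BMP pathway, had 7.57 in FB and 6.55 in FW and did not pass (limma, adjusted p = 0.16), and MSX1 had 5.17 in FB and 5.26 in FW.

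From day 2 on, the BMP response genes did not stay apart. Their median difference was 0.02 on day 2, 0.24 on day 3 and between -0.18 and 0.18 from day 4 to day 8, and no member was called over 7 days or on days 4 to 8. Most detected members ended above day 0: 18 were detected in FB or FW on day 8, and 13 of these were at least 2-fold above it in both arms. Members detected in neither arm that day were left out of the count. How many of all genes were 2-fold above day 0 was not counted. The list also holds lineage factors such as GATA3 and HAND1. ID1 rose by less than 2-fold, from 11.42 on day 0 to 11.89 in FB and 11.98 in FW on day 8. Over the 17 genes tested, the median difference from day 0 was 2.49 in FB, 2.66 in FW and 2.16 in FBW (-0.03, 0 and -0.04 over all genes tested). SMAD6 on day 8 had 7.89 in FB, 8.48 in FW and 10.92 in FBW, and MSX2 had 8.90 in FB and 8.74 in FW. The description of FW names no BMP, and its BMP response genes lay within a median of 0.18 of FB from day 4 on.

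SP5, a direct WNT target that limits the pathway's output, was among the genes lower in FB on day 1, with 6.35 in FB and 9.33 in FW. FBW and BW had 10.58 and 10.08 there. The difference passed the day 1 test at -3.39 ± 0.64 (limma, adjusted p = 0.0304), as did that of DKK1, a secreted WNT antagonist that is itself a target, with 5.50 in FB and 6.63 in FW (adjusted p = 0.0248). AXIN2, a widely used WNT target, had 8.51 in FB and 9.35 in FW and did not pass (limma, adjusted p = 0.125), and LEF1 was not detected in either arm on day 1. Of the 11 WNT response genes tested, 2 passed, both lower in FB, beside 0.639% of all genes, and the median day 1 difference was -0.70. On day 4, LEF1 was detected in FB at 5.50 and not in FW at 4.46, and both arms stayed below the 10.08 of FBW.

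NODAL, the TGF-beta family signal of the streak, had 7.36 in FB and 10.07 in FW on day 1, and its inhibitors LEFTY1 and LEFTY2 had 8.24 and 5.43 in FB and 10.97 and 7.85 in FW. These 3 were at least 4-fold lower in FB on day 1 but did not pass the test against the other days (limma, adjusted p = 0.0789, 0.29 and 0.151), and they lay the other way round on day 2. FST, which binds activin, was the 1 called member of the 10 NODAL pathway genes tested, beside 0.639% of all genes. It had 8.94 in FB and 10.75 in FW (limma, adjusted p = 0.00308). FGF8, an FGF made by the streak, was not detected in FB (4.32) and had 7.49 in FW, at least 5.1-fold higher in FW (limma, adjusted p = 0.00375). Other genes at least 4-fold lower in FB were FGF19 (5.28 in FB, 7.47 in FW), DACT1, a WNT pathway modulator (6.18 in FB, 8.28 in FW), GAD1, which makes the transmitter GABA (6.44 in FB, 8.72 in FW), and THBS2, a matrix glycoprotein (5.85 in FB, 8.41 in FW).

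The other genes at least 4-fold higher in FB on day 1 were CDH6, a cadherin (7.35 in FB, not detected in FW at 4.44, at least 5.00-fold), the receptors FGFR3 (10.06 in FB, 7.68 in FW) and PTH1R (7.61 in FB, 5.58 in FW), and SAMD11. A second probe of FGFR3 differed the other way by -1.30, and second probes of SAMD11 and PTH1R differed by 0.18 and 0.76, so none of these 3 is counted as settled. In the 8 genes higher in FB, FW was the lowest of the 4 arms in 8 of 8. In the 9 genes lower in FB, FB was the lowest in 8, the exception being LEFTY1, where BW was lower still. The genes were chosen by a 4-fold gap between FB and FW, which sets part of both counts. The 8 include the unsettled FGFR3, SAMD11 and PTH1R.

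**Figure D2:**
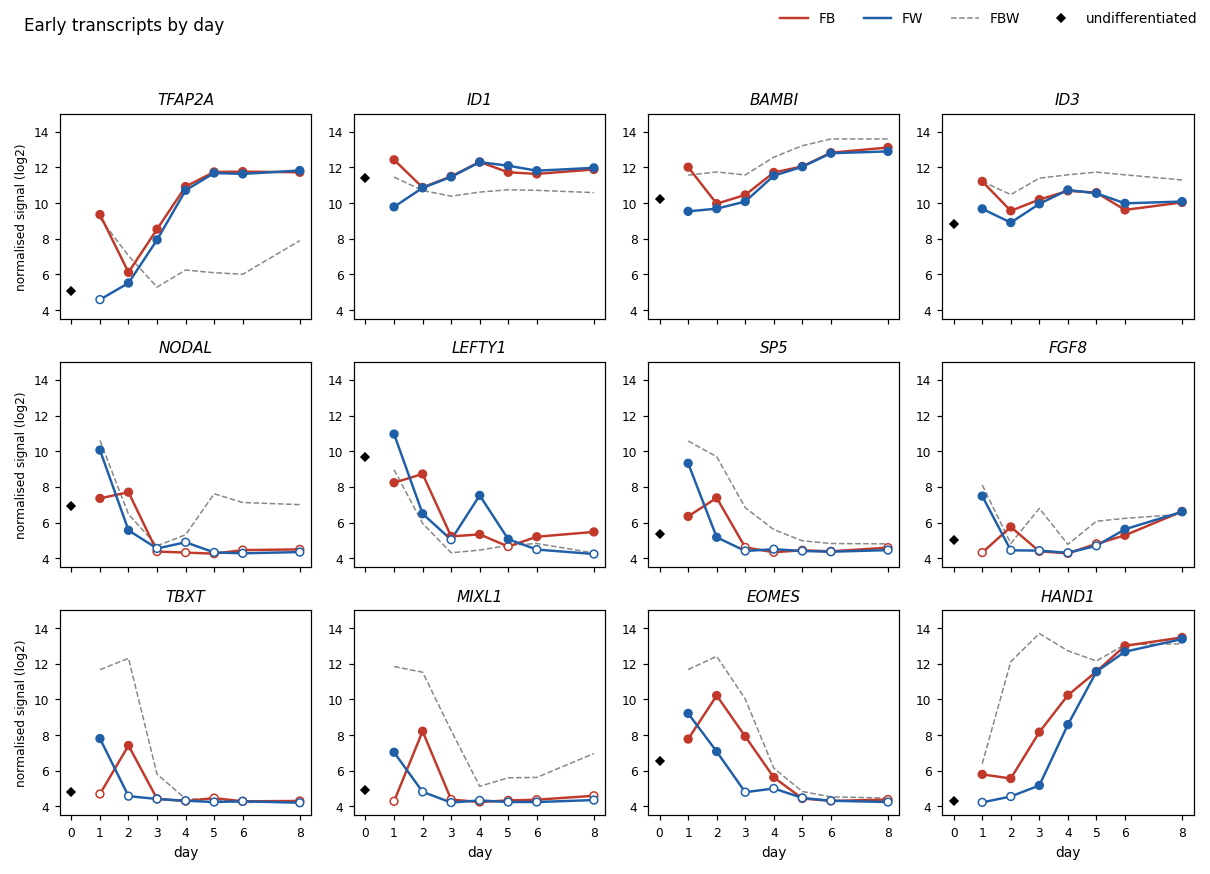
Log2 normalised signal (y) by day (x) for 12 genes, FB in red, FW in blue, FBW as a grey dashed line, day 0 as a black diamond and signals not detected as open circles. TFAP2A, ID1, BAMBI and ID3 are higher in FB on day 1 and then run together. NODAL, LEFTY1, SP5, FGF8, TBXT, MIXL1 and EOMES are higher in FW on day 1 and higher in FB on day 2, and FBW lies above both in TBXT and EOMES.

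The promoters of BAMBI and SP5 are shown because these genes carried the clearest BMP and WNT sides of day 1 among genes with a match to the motifs searched. They are the 250 bases before the gene start in RefSeq, build GRCh38.p14, both on the plus strand, with BAMBI at chr10:28677271-28677520 and SP5 at chr2:170715087-170715336. Capitals mark matches to GGCGCC, a motif of BMP-activated SMADs, in BAMBI and to CTTTGAT, a motif of TCF/LEF factors, in SP5.
BAMBI: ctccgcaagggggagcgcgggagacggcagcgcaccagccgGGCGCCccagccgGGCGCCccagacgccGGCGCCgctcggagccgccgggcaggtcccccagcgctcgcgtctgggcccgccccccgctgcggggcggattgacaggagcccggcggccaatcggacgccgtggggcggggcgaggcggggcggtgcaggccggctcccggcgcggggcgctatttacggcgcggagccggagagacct
SP5: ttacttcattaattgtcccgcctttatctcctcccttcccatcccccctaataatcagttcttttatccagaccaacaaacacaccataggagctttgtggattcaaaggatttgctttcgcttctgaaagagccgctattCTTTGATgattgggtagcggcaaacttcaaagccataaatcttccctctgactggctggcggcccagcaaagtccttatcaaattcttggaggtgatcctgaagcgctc

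BAMBI held 3 GGCGCC matches, 209, 196 and 181 bases before the start, and SP5 held 1 CTTTGAT match, 109 bases before it. Both motifs were searched on both strands and do not overlap each other. GGCGCC was in 8 of 27 promoters of BMP response genes (29.6%; 16 of 20 genes matched to the table), in 3 of 13 of WNT response genes (23.1%; 10 of 20 genes matched) and in 5752 of all 35116 promoters (16.4%). CTTTGAT was in 1 of 27 promoters of BMP response genes (3.7%), in 1 of 13 of WNT response genes (7.69%) and in 794 of all 35116 (2.26%). Such a match is a description of the letters in this window and not of a bound site.

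On day 2 the order of the streak genes detected in both arms turned round. The list had 18 genes with a probe. Of the 9 primitive streak genes detected in each arm on at least 1 of days 1 to 3, all 9 were highest in FW on day 1, and in FB 6 were highest on day 2, FOXA2 and APLNR on day 3 and WNT3 on day 1. All 9 were lower in FB on day 1 and higher in FB on day 2. Genes detected in 1 arm alone could not enter, and how many of all genes turned this way was not counted. EOMES, a T-box factor of the streak, had 7.78, 10.22 and 7.93 in FB on days 1, 2 and 3, against 9.22, 7.08 and not detected (4.80) in FW. TBXT, or brachyury, was not detected in FB on day 1 (4.70), had 7.42 in FB on day 2, and was not detected again, whereas FW had 7.81 on day 1 and was not detected on day 2 (4.58). It was at least 6.36-fold higher in FW on day 1 and at least 5.49-fold higher in FB on day 2. MIXL1, a streak homeobox gene, was at least 3.74-fold higher in FW on day 1 and at least 9.58-fold higher in FB on day 2. Both were detected on fewer than 3 arrays and so were outside the tests. Also among the 9 were NODAL (7.71 in FB, 5.57 in FW on day 2) and SP5 (7.39 in FB, 5.18 in FW). Of 10 NODAL pathway genes detected in each arm on those days, 6 made the same turn. NODAL and LEFTY1 (8.73 in FB, 6.50 in FW on day 2) were among them, as was FOXH1 by smaller differences (-0.64 and 0.12). Others did not, such as GDF3, higher in FB on both days (0.52 and 0.89), and FST, lower on both (-1.82 and -0.12). Also on day 2, 6 of 21 FGF and ERK response genes were at least 2-fold higher in FB and none lower, where 33 of 11021 genes (0.299%) were 2-fold higher. Among them were the feedback inhibitors SPRY4 (8.65 in FB, 7.36 in FW) and DUSP6 (8.47 in FB, 7.12 in FW), chosen after their values were seen.

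The streak gene levels were small beside that of FBW, where TBXT had 11.67 and 12.31 and EOMES 11.68 and 12.42 on days 1 and 2, and TBXT and MIXL1 were each detected on 1 array of FB and 1 of FW. TBXT and MIXL1 were outside the window tests, which called none of the 7 primitive streak genes and 10 NODAL pathway genes tested. The days 1 to 3 test averages over days, so differences of opposite sign partly cancel in it, as with EOMES (-1.44 on day 1, 3.14 on day 2). It cannot decide on the turn between days 1 and 2. MESP1, the factor of the earliest heart mesoderm, was detected in FB on day 3 at 5.14 and not in FW on any day. Its fold on day 3 was bounded only at 1 or more, so no difference can be given. FBW had 12.21 on day 2. CDX2 was detected in FW on day 8 alone, at 5.27, at least 1.12-fold higher than in FB.

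Day 3 left FB higher in a few genes that follow the streak. EOMES was at least 6.91-fold higher in FB. APLNR, the apelin receptor of early mesoderm, had 7.63 in FB and was not detected in FW (4.38), at least 5.62-fold. SOX17, an endoderm and endothelium factor, had 6.96 in FB and was not detected in FW (4.41), at least 3.53-fold, and was called on that day (limma, excess 2.43 ± 0.31, adjusted p = 0.0479). FOXA2, a forkhead factor of endoderm, had 8.80 in FB and 7.08 in FW. HAND1, a factor of extraembryonic and lateral mesoderm, had 5.80, 5.57, 8.17, 10.24, 11.57, 13.01 and 13.48 in FB over the 7 days, against 4.23, 4.56, 5.18, 8.59, 11.56, 12.68 and 13.39 in FW, the first 2 not detected. It was higher in FB on 7 of 7 days, with a mean of 1.09 (limma, adjusted p = 0.0686), and the arms met on day 5. PDGFRA, a mesoderm receptor, stayed at 4.78 to 7.03 in FB and 4.25 to 6.08 in FW, against up to 12.63 in FBW.

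On day 4, 4 of 10 NODAL pathway genes were at least 2-fold lower in FB (21 of 10699 genes, or 0.196%, were on that day), and the median of the 10 was -0.38. LEFTY1 had 5.34 in FB and 7.53 in FW, and LEFTY2 had 6.31 in FB and 7.67 in FW. SMAD7, an inhibitory SMAD, had 6.86 in FB and 8.10 in FW. INHBE, an inhibin chain, had 5.29 in FB and 6.75 in FW. INHBE is also a target of the integrated stress response, and NODAL itself was not among the 4. NANOG was also lower in FB that day, with 6.66 in FB and 8.23 in FW, and it had 5.56 in FB and 6.47 in FW on day 5 and 5.90 in FB with no detection in FW (4.95) on day 6. None of these passed a window test or the day 4 test.

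The arms shared a slow loss of pluripotency factors. SOX2 had 11.11, 11.49, 11.78, 11.61, 11.77, 10.36 and 8.93 in FB, against 11.06, 11.80, 11.95, 11.67, 11.51, 10.63 and 9.24 in FW, and 4.23 in FBW on day 8. Both arms held SOX2 within 1 log2 unit of its day 0 level to day 5 and lost part of it later, and the 95% interval of their difference was -0.26 to 0.03. POU5F1 had 11.12 in FB and 10.88 in FW on day 1, and 7.59 in FB and 7.80 in FW on day 8, with 4.55 in FBW (interval of the difference -0.18 to 0.17). By day 8, 20 of 25 pluripotency genes in FB and 18 in FW were at least 2-fold below day 0, and the share over all genes was not counted. Over the 24 that were tested, the median differences from day 0 were -2.27 in FB and -2.29 in FW, against -3.51 in FBW. Over all genes tested these medians were -0.03, 0 and -0.04. Of the 24 tested, 2 were called over 7 days, beside 1.00% of all genes. Both were lower in FB: ZFP42 by -0.34 and SALL4 by -0.29 (limma, adjusted p = 0.0359 each). ZIC2, a neural and pluripotency zinc finger factor, had 8.32 in FB and 8.39 in FW on day 8. PAX6, which marks neuroectoderm, was not detected in FB or FW on any day.

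Most markers of amnion, trophoblast and surface ectoderm detected on day 8 lay above day 0 in both arms, at nearly equal levels. Of 25 such genes with a probe, 21 were detected in FB or FW on day 8. Of these 21, 17 were at least 2-fold above day 0 in both arms, and the share over all genes was not counted. Genes detected in neither arm that day were left out, which favours a rise. Over the 20 genes tested, the median differences from day 0 were 3.54 in FB, 3.36 in FW and 1.22 in FBW. These 20 were chosen by detection in FB and FW alone. Over all genes tested the medians were -0.03, 0 and -0.04. VTCN1, an immune checkpoint ligand of amnion and trophoblast, was detected in FB at 5.55 and not in FW at 4.42 on day 4, and had 11.58 in FB and 11.59 in FW on day 8, against 8.52 in FBW. GATA3, a trophoblast and amnion factor, had 7.92 in FB and 7.93 in FW on day 8 (5.65 in FBW, 7.27 in BW). TFAP2C had 9.37 in FB and 9.48 in FW (5.36 in FBW). ISL1, an amnion and heart progenitor factor, had 11.58 in FB and 11.82 in FW (9.67 in FBW, 11.81 in BW). In GATA3 and ISL1, BW thus lay nearer to both arms than FBW did. Of 20 tested, 1 was called over 7 days, beside 1.00% of all genes: the simple-epithelium keratin KRT19 (0.37 higher in FB, limma, adjusted p = 0.0435). On days 4 to 8 there was 1, beside 0.302% of all genes: GABRP, a GABA receptor subunit (0.55 ± 0.09, limma, adjusted p = 0.0312).

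**Figure D3:**
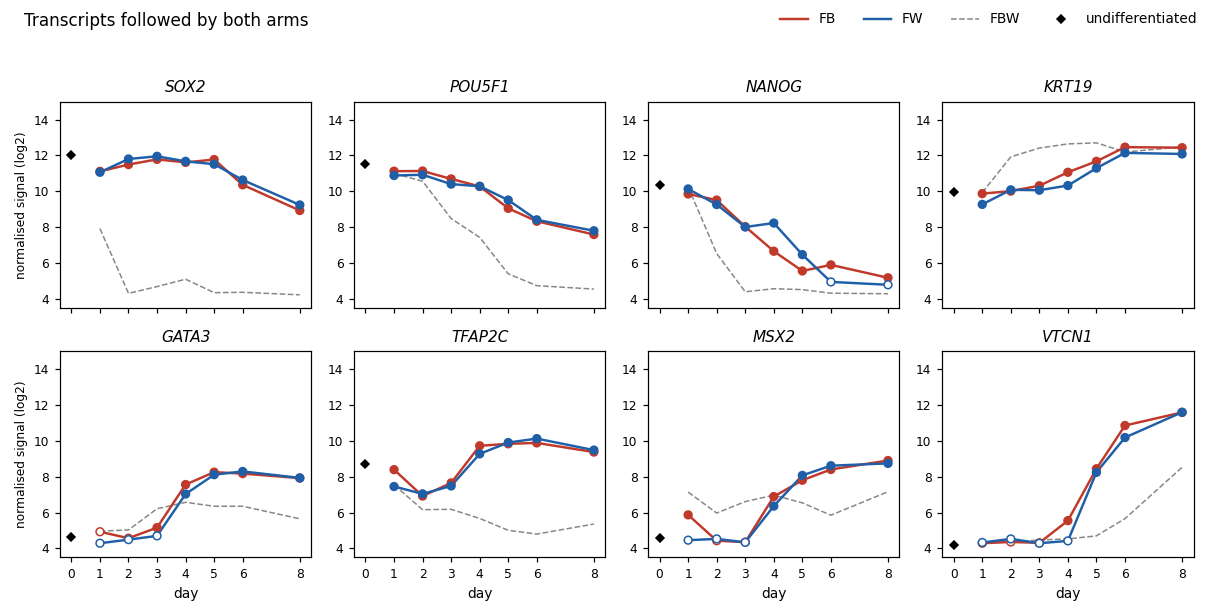
Log2 normalised signal (y) by day (x) for 8 genes, FB in red, FW in blue, FBW as a grey dashed line, day 0 as a black diamond and signals not detected as open circles. SOX2 and POU5F1 decline together in FB and FW and further in FBW. GATA3, TFAP2C and VTCN1 end at the same level in FB and FW, 11.58 and 11.59 for VTCN1, above FBW.

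On days 4 to 8, FB was higher in a few genes of liver and yolk sac endoderm and in NPPB of the heart muscle list. Of 14 endoderm and liver genes tested, 3 (FGB, APOA1 and SERPINA1) were called on days 4 to 8, all higher in FB, against 0.302% of all genes called. The late median difference of the 14 was 0.75, and the daily medians from day 3 to day 8 were 0.48, 0.58, 0.74, 0.17 and 0.55. Not all genes of this kind were higher in FB. On day 8 the albumin gene ALB, near the detection limit, had 5.15 in FB and 5.35 in FW. The forkhead gene FOXA3 had 5.98 in FB and 6.48 in FW that day. No gene's difference changed between the windows by test. FGA, FGG and APOA4, outside that list, are described beside them after their values were seen. FGA, the alpha chain of fibrinogen, had 7.54, 7.53, 8.45 and 9.77 in FB on days 4, 5, 6 and 8, against 5.52, 5.55, 7.68 and 7.93 in FW. It was higher in FB on each of these days, by 1.65 ± 0.21 (SE; limma, adjusted p = 0.0189). FGB, the beta chain, differed by 1.04 ± 0.18 (adjusted p = 0.0346), and FGG, the gamma chain, by 1.27 ± 0.19 (adjusted p = 0.0235), in the same test.

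APOA1, the main protein of high-density lipoprotein, had 9.10, 8.52, 8.52 and 8.95 in FB on days 4, 5, 6 and 8, against 8.32, 7.29, 7.95 and 7.56 in FW (0.99 ± 0.18; limma, adjusted p = 0.0346). APOA4, a further apolipoprotein, had 5.57, 7.27, 8.27 and 9.33 in FB, against 4.40 (not detected), 5.10, 7.82 and 7.36 in FW (1.43 ± 0.22, adjusted p = 0.0235). SERPINA1, or alpha-1 antitrypsin, had 7.38 in FB and 6.15 in FW on day 8 (0.84 ± 0.16, adjusted p = 0.0488). AFP and APOA2 differed by 1.00 and 1.07 and did not pass (adjusted p = 0.0538 each). The late count also moved when a day was left out: without day 5 there were 0, without day 8 there was 1 and without day 6 there were 3, while without day 1 there were 197 and without day 2 there were 95.

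NPPB, a natriuretic peptide of heart muscle, was the 1 gene called on days 4 to 8 of 14 cardiomyocyte genes tested, beside 0.302% of all genes. It had 6.56, 7.25, 7.96 and 9.97 in FB, against 6.28, 5.02 (not detected), 5.89 and 7.46 in FW on days 4, 5, 6 and 8 (1.77 ± 0.27; limma, adjusted p = 0.0235). MYH6, the atrial myosin heavy chain, had 5.60, 9.59, 8.45 and 7.19 in FB, against 5.77, 5.94, 5.83 and 5.29 in FW, and its difference of 2.00 ± 0.40 did not pass (adjusted p = 0.0522). Its probe may also read the near-identical MYH7. MYL4 had 8.81 in FB and 5.66 in FW on day 5, and 7.56 in FB and 7.29 in FW on day 8. MYH6 had 14.01 in FBW on day 8. Over the 14 cardiomyocyte genes tested, the median difference from day 0 on day 8 was 2.07 in FB, 0.84 in FW and 5.21 in FBW. These 14, of 25 list genes with a probe, are those detected on at least 3 FB and FW arrays, so genes silent in both arms are left out. ACTN2, a heart muscle gene, had 9.00 in FBW on day 8 and was not detected in FB or FW on any day. On day 8, 13 genes of the list were detected in FB or FW, and 9 of these were at least 2-fold above day 0 in FB and 6 in FW. Genes detected in neither arm that day were left out of this count, and the share over all genes was not counted.

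Some other genes were furthest apart on day 8. TGM2, a transglutaminase, had 6.22, 8.04 and 9.64 in FB on days 5, 6 and 8, against 4.99 (not detected), 5.89 and 7.00 in FW, with no call (limma, days 4 to 8, adjusted p = 0.0522). CAV1, the coat protein of caveolae, had 8.92 in FB and 5.83 in FW on day 8 but was lower in FB on day 4. The contractile genes ACTG2 (8.59 in FB, 6.10 in FW), CNN1 (7.21 in FB, not detected in FW at 5.00, at least 4.37-fold) and ACTA2 (12.35 in FB, 11.06 in FW) and the oxytocin receptor OXTR (8.56 in FB, 6.44 in FW) were higher in FB on day 8. Of 14 smooth muscle, fibroblast and epicardium genes tested, 1, S100A4, was called late and over 7 days, beside 0.302% and 1.00% of all genes. The late median of the 14 was 0.38. H19, an imprinted non-coding RNA that was furthest apart on day 5, had 6.37, 8.91, 11.29 and 12.60 in FB, against 5.39, 7.89, 10.49 and 11.96 in FW, from day 4 to day 8 (0.86 ± 0.15, adjusted p = 0.032).

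**Figure D4:**
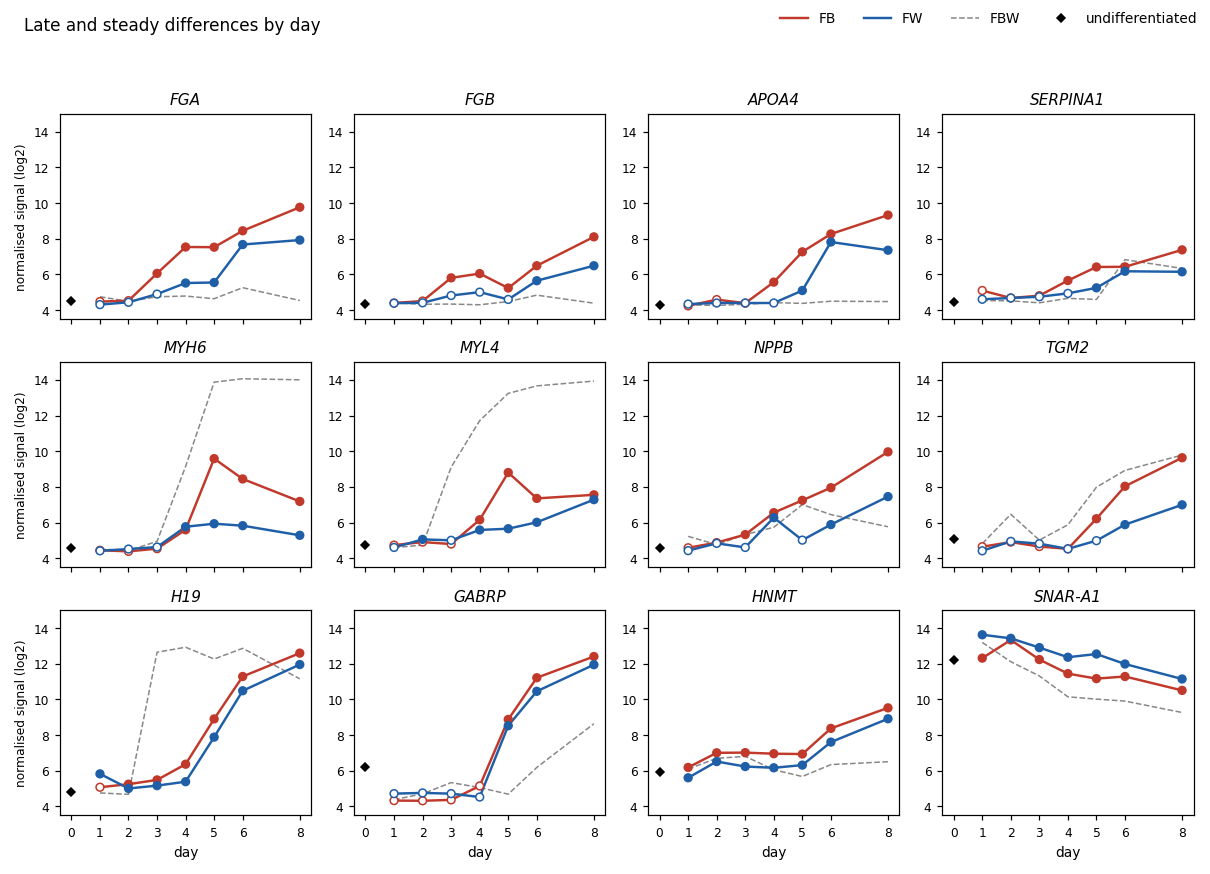
Log2 normalised signal (y) by day (x) for 12 genes, FB in red, FW in blue, FBW as a grey dashed line, day 0 as a black diamond and signals not detected as open circles. FGA, FGB, APOA4, SERPINA1, NPPB and TGM2 end higher in FB, MYH6 and MYL4 are furthest apart on day 5, and SNAR-A1 is lower in FB. MYH6 in FBW reaches 14.01, far above both.

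The steadiest differences over all 7 days were small. HNMT, the enzyme that inactivates histamine, had 6.19, 7.01, 7.02, 6.96, 6.94, 8.38 and 9.53 in FB, against 5.61, 6.52, 6.24, 6.17, 6.32, 7.61 and 8.92 in FW. It was higher in FB on 7 of 7 days, by 0.66 ± 0.07 (SE; limma, adjusted p = 0.00184), while its other probes differed by 0.24, 0.44 and 0.07. RPRM, a p53-induced brake on the cell cycle, had 8.27, 7.93, 8.38, 9.05, 8.60, 8.03 and 6.83 in FB, against 9.00, 8.37, 8.88, 9.43, 9.13, 8.34 and 7.44 in FW, lower in FB on 7 of 7 days (-0.50 ± 0.06, adjusted p = 0.00641). SNAR-A1, a small non-coding RNA of a multi-copy family whose copies the probe may not separate, had 12.32 in FB and 13.63 in FW on day 1 and 10.51 in FB and 11.15 in FW on day 8 (-0.82 ± 0.12, adjusted p = 0.0224).

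The other genes called with 1 sign on all 7 days and the largest differences were, higher in FB, FGA (1.15), FGB (0.75), OXGR1, a receptor for oxoglutarate (0.69), EPB41L3 (0.61), the glutathione transferase GSTA2 (0.59), S100A4 (0.55), LCP1, an actin bundler (0.52), the aminopeptidase ENPEP (0.49), SOX9, a factor of cartilage and neural crest (0.48), MEIG1 (0.47) and LARP7 (0.47). Lower in FB were GPR183 and SILC1 (-0.55 each), GSTA3 (-0.53), PHLDA1 (-0.52), HES6 and PRSS36 (-0.49 each), RANGRF and DNTTIP2 (-0.48 each), MCOLN2 (-0.46) and CASP14 (-0.45). GSTA2 and GSTA3 are near-identical paralogs, so their opposite signs are uncertain. CASP14, GSTA3 and SILC1 were not detected in FB on any day, and MEIG1 was not detected in FW on any day, so their differences lie near the background. HNMT and RPRM kept their calls in 12 and 13 of 16 alternative settings, SNAR-A1 in 10 of 16, and the others of these 24 in 9 or fewer.

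**Figure D5:**
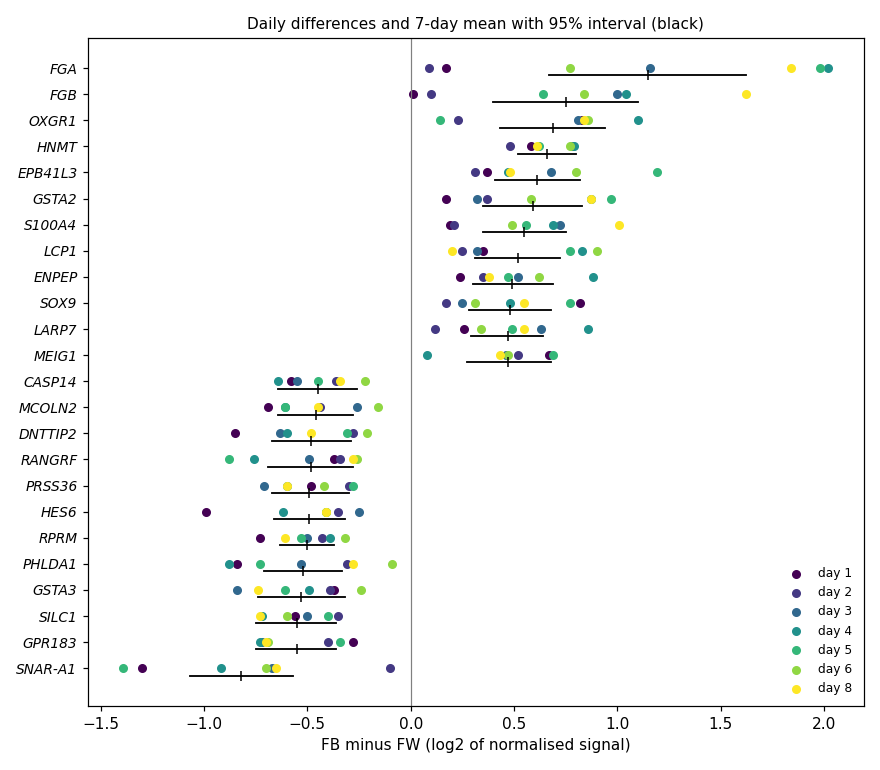
FB minus FW difference in log2 signal (x) for the 24 genes with the largest steady differences (rows), each day's value as a coloured point and the 7-day mean with its 95% interval in black. FGA has the largest mean, 1.15, and SNAR-A1 the most negative, -0.82; most of the others lie between 0.45 and 0.75 in size.

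Apart from these, the fixed lists showed few calls over 7 days or in either window. The neural crest list had 2 calls over 7 days of 10 tested, both higher in FB, SOX9 and ETS1 (0.32; limma, adjusted p = 0.0477). The ETS1 call held in 3 of 16 alternative settings, and another ETS1 probe differed by -0.05. The lists of BMP response, BMP ligands and antagonists, WNT response, WNT ligands and antagonists, NODAL pathway, primitive streak and FGF response had none over 7 days or in either window, beside 1.00% of all genes called over 7 days. The same held for neuroectoderm, cardiac mesoderm, presomitic mesoderm, caudal HOX and CDX, endothelium and blood, cadherins and epithelial to mesenchymal transition, retinoic acid, proliferation, p53 and stress, hypoxia and glycolysis, and sterol synthesis. All lists were chosen with earlier results of these data known.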

How the data were processed

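HuES6 cells were profiled on Illumina bead arrays, 29 in all. The deposited table gives a summarised bead intensity and a detection p-value for each probe and array. GenomeStudio is named in the submitters' processing notes, without a version. RNA came from RNeasy columns with DNA digestion and was amplified for 14 h, per the labels' protocols. A second deposited table holds processed intensity values of the same arrays, whose normalisation no source used here states. Its values are linear, go down to -13 and have a median of 6.88 on every array. It was used as an alternative only, after adding 16 and taking log2.

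From the raw intensity, neqc of limma 3.58.1 (R 4.3.3) took the level of the negative controls (770, from the step of the detection p-values) from signals and detection p-values, corrected the background, added an offset of 16, normalised by quantiles and took log2. One probe stood for a gene, that with the highest mean over the 29 arrays; 30113 probes had 1 symbol, 8 several and 17202 none, and 6691 genes had more than 1 probe. In 61 comparisons with other probes of named genes, 13 had the opposite sign over 7 days.

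The test was lmFit and eBayes with trend on the 14 arrays, with day as a block and arm as the contrast, and a second fit with the arm difference on days 1 to 3 and on days 4 to 8 apart. Adjusted p-values are Benjamini-Hochberg over 11576 genes, called under 0.05, with 6 and 5 residual degrees of freedom. The pairing by day comes from the labels, and same-day arrays deviated together at r of 0.664 to 0.922. The median correlation of neighbouring daily differences was -0.065 (-0.143 for unrelated days). On simulated data of the 7-day comparison over 11576 genes, 62% of 100 differences of 0.5 and 98% of 100 differences of 1 log2 unit were recovered, with 6 false among 166 calls. Nothing in the labels says that the arrays come from separate cultures, so the p-values measure the spread between these samples.

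The genes named were the 12 largest called differences each way of 1 sign on all days, list members called, and a fixed set of stage and pathway genes. The members and lists were chosen with earlier results of these data known. The test of each day against the others, and the genes named from daily folds, were added after the daily values were seen. Alternatives were other normalisations, filters and probe rules, the fit with no block, array weights, all 4 arms in 1 fit, and each day left out.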

Additional observations from a re-analysis of the deposited data

Results flagged for a closer look

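The 7 daily differences of 57 named genes and 4 array measures were searched for 1 value far from the rest, by Dixon's criterion at its 95% critical value. Chance gives about 1 in 20, and 6 genes and 1 array measure were found. On day 1, FB minus FW was 4.77 for TFAP2A (nearest other day 0.60), 2.64 for ID1 (0.03), 2.47 for BAMBI (0.36), 1.17 for ID2 (0.11) and -1.13 for DKK1 (0.05). MEIG1 had 0.08 on day 4 (nearest 0.43). The median raw intensity of the FW arrays was 103.8 on day 6 (nearest 100.9). The 5 values of day 1 come from the same 2 arrays and are not independent of each other.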

How the results depend on the processing

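With day as a block, 116 genes were called over 7 days. With no replicate block there were 0, on days 4 to 8 0 in place of 35. Leaving out 1 day at a time gave 3 to 278 calls over 7 days, 0 to 9 on days 1 to 3 in place of 0, 0 to 197 on days 4 to 8, 0 to 11 for the change between windows in place of 0, and 33 to 89 on day 1 in place of 74. Array weights gave 324 over 7 days and 200 on days 4 to 8, all 4 arms in 1 fit 4 and 0, and days 1, 3, 5 and 8 alone 0 over 7 days. On days 4 to 8, no detection filter gave 12 and the mean of detected probes 64. Quantile normalisation without background correction gave 2 on days 1 to 3, and the authors' processed values gave 1 for the change between windows. Daily folds numbered 43 at 4-fold, 424 at 2-fold and 13 at 4-fold without background correction. Near-equal genes numbered 11542 and, without background correction, 11568. Under these settings no 7-day or day 1 difference run for a single gene reversed its direction; the days 4 to 8 and daily values of single genes were not rerun. Against another detected probe of the same gene, 13 of 61 differences over 7 days had the opposite sign. The day 1 calls of TFAP2A, ID1, ID2, ID4, BAMBI, CDH6, THBS2 and FST held in 11 of 11 alternatives, those of ID3 in 10 of 11, MSX2 in 5 of 11 and SP5 in 5 of 10. The cause of these changes was not tested. With 1 array for each arm and day, no daily difference has an error, and dim signals near the detection limit give bounds only.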

Other observations

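Some genes not described above, or not with these values, also differed between the arms on single days. On day 1, 3 targets of the integrated stress response were at lower levels in FB: INHBE had 5.87 in FB and 7.41 in FW, TRIB3, a pseudokinase, 6.50 in FB and 7.80 in FW, and CHAC1, which degrades glutathione, was not detected in FB (4.64) and had 5.91 in FW. The asparagine synthetase ASNS, of the same response, had 10.86 in FB and 10.44 in FW. On day 4, TRIB3 again had 6.21 in FB and 7.08 in FW.

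IER3, an immediate early gene, had 9.56 in FB and 7.81 in FW on day 2. DLK1, an imprinted Notch-like protein, had 9.55 and 11.02 in FB on days 4 and 5, against 8.07 and 9.46 in FW. NPY, a neuropeptide, had 8.43 in FB and 5.37 in FW on day 5. CDKN1A, the p21 cell-cycle inhibitor, had 9.70 in FB and 8.30 in FW on day 8. Each of these is a single pair of arrays with no error, and the genes were chosen after their values were seen.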
